A study of Homo sapiens with 6 samples.

Results

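HIF1A encodes the oxygen-regulated subunit of the transcription factor HIF-1, and VEGFA encodes a secreted growth factor for blood vessels whose gene is a target of HIF-1. Both mRNAs carry AU-rich 3'UTRs and are known as ligands of HuR (ELAVL1), a protein that binds U-rich and AU-rich RNA and is known to act on mRNA stability, translation and splicing. In normal oxygen, prolyl hydroxylases mark HIF1A protein for degradation through VHL, and at low oxygen this step slows. The 2 genes, out of 20176 protein-coding genes of GENCODE, were followed here through all sites on their own strand. A site was counted for a gene when its midpoint lay within the gene's span on GRCh37, the same build as hg19: chr14:62162231-62214977 on the plus strand for HIF1A and chr6:43737921-43754224 on the plus strand for VEGFA. Of 10639684 sites in the 6 libraries, 1140 belonged to them, or 0.0107%, and the sequences of all 1140 equalled GRCh37 at the stated positions.

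The sites came from PAR-CLIP, in which cells take up 4-thiouridine (4SU), UV light crosslinks it to bound protein, and crosslinked positions appear after sequencing as T-to-C conversions. All 6 libraries came from HEK293 cells, a human embryonic kidney line, grown with 4SU, irradiated with long-wave UV and partly digested with RNase T1, which cuts RNA after G. The cells of the HuR libraries expressed FLAG-HuR, those of the background libraries FLAG-GFP, each from an inducible transgene, and the FLAG-tagged protein was immunoprecipitated. HuR had 2 replicates. The background libraries G20, G35 and G45 were single libraries cut from the gel at about 20, 35 and 45 kDa, and they are compared below as 3 samples of the GFP group although they are different slices. Total was 1 library without immunoprecipitation, digested with proteinase K and depleted of rRNA. No library was labelled as hypoxic, so the comparisons below say nothing of low oxygen. Nothing in the labels places the HuR replicates in separate cultures, and p-values measure only the spread between these samples, which may be technical.

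The libraries held between 6187300 reads (G35) and 38644636 reads (G20). HIF1A held 80, 37 and 46 reads in G20, G35 and G45, 274 and 3737 in HuR replicates 1 and 2, and 1041 in Total. VEGFA held 211, 53 and 57 reads in the slices, 65 and 684 in the HuR replicates and 580 in Total. Reads were scaled between libraries by the TMM factors of edgeR, and G20 stood apart with a factor of 0.199 against 0.872 to 2.04 in the other 5 libraries, so results are also given without it where it moves them. Scaled levels are given below as CPM, the reads per 1000000 reads of the TMM-scaled library, and as RPM where the plain library total was used. Of the markers listed for HEK293, KRT8 had 128 exonic reads in Total, KRT18 had 40, PAX2 had 22 and NEFM had 4. The markers of other cells gave 3 reads for PTPRC, 0 for HBB, 1 for CD34 and 1 for DES, but ALB, a liver marker, had 41. ELAVL1 itself had coding reads at 33.1 to 53.7 CPM in the slices and at 9.69 and 10.6 in the HuR replicates. In its 3'UTR the order was the opposite, with 7.35 to 9.27 in the slices and 32.7 and 44.5 in the HuR replicates.

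Regions were taken from all GENCODE transcripts of a gene in the order coding, 3'UTR, 5'UTR, noncoding exon and intron. In HIF1A the coding region spanned 2588 bases, the 3'UTR 1174 and the introns 47596. In VEGFA the coding region spanned 1305 bases, the 3'UTR 1859 and the introns only 1873, because 10661 bases lay in exons of noncoding VEGFA transcripts. Both 3'UTRs were single blocks, at chr14:62213804-62214977 and chr6:43752366-43754224, and 2 lncRNA genes, ENSG00000288928 and ENSG00000258964, overlap HIF1A on its strand, so reads of these cannot be told apart from those of HIF1A. T made up 39.8% of the 3'UTR bases in HIF1A and 30.4% in VEGFA.

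The sequences of the strongest HuR intervals are shown first, because the comparisons of the 3'UTRs rest on them. Overlapping sites of the HuR replicates were merged into intervals, and the intervals of each 3'UTR were ranked by the lower of the 2 replicates' RPM. Each sequence is the interval itself where it has at most 30 bases, or otherwise 30 bases around the position of densest conversion. Letters are given as DNA, 5' to 3', and capitals mark TTTTT and ATTTA, which are the U-run and the AU-rich pentamer. The 5 windows of the HIF1A 3'UTR were:
HIF1A interval 1: tgcactttgtcgctattaacatccTTTTTT
HIF1A interval 2: cagtaaatatcttgTTTTTTctatgtacat
HIF1A interval 3: ttgcagtagcatcattttaaaaaatgcacc
HIF1A interval 4: cTTTTTcttaatttcattccTTTTTTTg
HIF1A interval 5: agtctATTTAtattttctacatctaatttt
The 5 windows of the VEGFA 3'UTR were:
VEGFA interval 1: acagttaATTTAattaaagagtagggtttt
VEGFA interval 2: gttaatATTTAatttcaactATTTAtgaga
VEGFA interval 3: catgtttccaatctctctctccctg
VEGFA interval 4: gagagactctggcatgatcTTTTTTTTgtc
VEGFA interval 5: agactccggcggaagcattcccgggcgggt

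The HIF1A windows lay at chr14:62214760-62214789, 62214852-62214881, 62214041-62214070, 62213805-62213832 and 62213859-62213888, in the order printed. The VEGFA windows lay at chr6:43753563-43753592, 43753608-43753637, 43753694-43753718, 43752848-43752877 and 43752497-43752526. Sites of HuR replicate 2 overlapped all 10 windows, while those of replicate 1 overlapped 3 of 5 in HIF1A and 4 of 5 in VEGFA. The windows of HIF1A intervals 2 and 3 and VEGFA interval 1 were covered by replicate 2 only, because the reads of replicate 1 lay elsewhere in the same interval. In HIF1A, 3 of the 5 windows held TTTTT and 1 held ATTTA. In VEGFA, 1 held TTTTT and 2 held ATTTA, and interval 5 held only 4 T in 30 bases. For comparison, of all 30-base windows of the HIF1A 3'UTR, moved by 1 base, 29.3% held TTTTT and 15.5% ATTTA, and in the VEGFA 3'UTR the shares were 14.8% and 11.7%. Over 1395320 adjoining 30-base windows of all protein-coding 3'UTRs they were 8.96% and 5.43%. The motifs were searched on the strand of the gene only and may overlap each other, and a match is a description of the letters and not of binding.

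In the HIF1A 3'UTR, HuR reads outnumbered background reads. The slices G20, G35 and G45 held 1, 9 and 10 reads there, against 55 and 810 in HuR replicates 1 and 2, and 122 in Total. Scaled, this was 0.241, 3.68 and 4.03 CPM in the slices, 8.73 and 18.1 in the HuR replicates and 5.71 in Total. Both HuR replicates lay above all 3 slices and above Total. How many of all tested 3'UTRs did the same was not counted, so this order is not a result about HIF1A. The fold of HuR over the slices was 2.38 ± 1.04 on the log2 scale (SE) with an adjusted p of 0.16, so the difference did not pass the threshold of 0.05. This and all adjusted p-values are from edgeR's quasi-likelihood test with Benjamini-Hochberg adjustment over 45563 gene regions, fitted on all 6 libraries. The fold of HIF1A lay above those of 82.0% of the 10476 3'UTRs tested, whose median was 0.67. Without G20 it was 1.72 with an adjusted p of 0.21, and with library totals as the scaling it was 4.13 and passed, with an adjusted p of 0.028. That scaling also moved the median fold of all tested regions from -0.23 to 1.77. The regions called rose with it from 1958 to 8384 of 45563, so the pass came with a shift of all regions.

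In the VEGFA 3'UTR the scaled levels of HuR and background were interleaved. The reads numbered 46, 22 and 20 in G20, G35 and G45, 27 and 447 in HuR replicates 1 and 2, and 307 in Total. In CPM these were 11.1, 8.99 and 8.06 in the slices, 4.29 and 9.98 in the HuR replicates and 14.4 in Total. HuR replicate 1 lay below every slice, HuR replicate 2 lay between them, and Total was the highest of the 6. The fold of HuR over the slices was -0.39 ± 0.86 (log2, SE), with an approximate 95% interval from -2.06 to 1.29 and an adjusted p of 0.80. Its direction depended on the scaling: with library totals it was 1.79 with an adjusted p of 0.31. That scaling moved the median fold of all tested regions from -0.23 to 1.77, so the change of sign came with a shift of all regions. Among 3'UTRs alone, whose median was 0.67, the fold of VEGFA lay above 33.5%.

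In the coding region of VEGFA, HuR reads were fewer than background reads after scaling. Coding reads numbered 67, 6 and 13 in G20, G35 and G45, against 2 and 14 in the HuR replicates and 66 in Total. Scaled, the slices had 16.1, 2.45 and 5.24 CPM, the HuR replicates 0.318 and 0.313 and Total 3.09. Both HuR replicates lay below all slices and below Total, and how many of all coding regions did the same was not counted. The fold of HuR over the slices was -4.63 ± 1.42 (log2, SE), with an adjusted p of 0.060, and 13.9% of the 11648 coding regions tested had a lower fold. The median coding region was at -2.63. Without G35 the fold was -5.01 and passed, with an adjusted p of 0.042, and without G20 it was -3.66 with an adjusted p of 0.15.

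The VEGFA coding reads lay mostly at its 5' end. VEGFA can start translation at CUG codons upstream of the AUG, and GENCODE counts the stretch from the CUG at chr6:43738444 to the AUG as coding. Of the coding reads, 57 of 67 in G20, 6 of 6 in G35, 13 of 13 in G45, 13 of 14 in HuR replicate 2 and 42 of 66 in Total lay upstream of the AUG at chr6:43738984, and 1 of 2 in HuR replicate 1. The G20 site with the most reads in VEGFA lay there, at chr6:43738672-43738767, with 24 reads. A HuR interval inside it, at chr6:43738686-43738708, held 1 and 3 HuR reads. Its sequence is shown because, unlike most of the 3'UTR windows, it held 3 T in 23 bases:
VEGFA coding interval 1: aagtgctagctcgggccgggagg

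In HIF1A, coding reads numbered 21, 3 and 8 in the slices, 9 and 106 in the HuR replicates and 334 in Total. In CPM these were 5.06, 1.23 and 3.22 in the slices, 1.43 and 2.37 in the HuR replicates and 15.6 in Total. The HuR values fell within the range of the slices, and Total was the highest. The fold of HuR over the slices was -0.74 ± 1.10 (log2, SE; adjusted p = 0.69), with an approximate 95% interval from -2.90 to 1.43. It lay above the folds of 82.9% of coding regions, whose median was -2.63. With library totals, which moved the median of all regions up by a like amount, it was 1.63.

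HIF1A introns held most of the gene's HuR reads, 74.5% and 73.1% in replicates 1 and 2, although over all genes introns held more, 80.7% and 81.8%. Intron reads numbered 51, 25 and 28 in G20, G35 and G45, 204 and 2730 in HuR replicates 1 and 2, and 530 in Total. Scaled, the slices had 12.3, 10.2 and 11.3 CPM, the HuR replicates 32.4 and 61.0, and Total 24.8. The slices differed little among themselves only after this scaling, since in RPM they had 1.32, 4.04 and 3.71 in G20, G35 and G45. Both HuR replicates lay above the slices and above Total. How many of all introns did the same was not counted. Over Total the fold was 0.91 ± 0.98 (adjusted p = 0.68), which was above only 39.4% of introns, whose median was 1.14. The fold of HuR over the slices was 2.05 ± 0.70 (log2, SE) with an adjusted p of 0.085, above 81.7% of introns, whose median was 0.75. It passed with DESeq2 (1.99, adjusted p = 0.041) and without HuR replicate 1 (3.05, adjusted p = 0.031), and without HuR replicate 2 it was 1.46 with an adjusted p of 0.63. VEGFA introns, with 1873 bases, held 26, 3 and 4 reads in the slices, 3 and 28 in the HuR replicates and 24 in Total, and the fold was -2.45 ± 1.67 (adjusted p = 0.36), or 0.09 with library totals. The 5'UTRs held at most 77 reads in any library. Their folds of HuR over the slices were 0.81 ± 1.84 in HIF1A and -2.24 ± 1.62 in VEGFA, with adjusted p-values of 0.81 and 0.38.

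**Figure D1:**
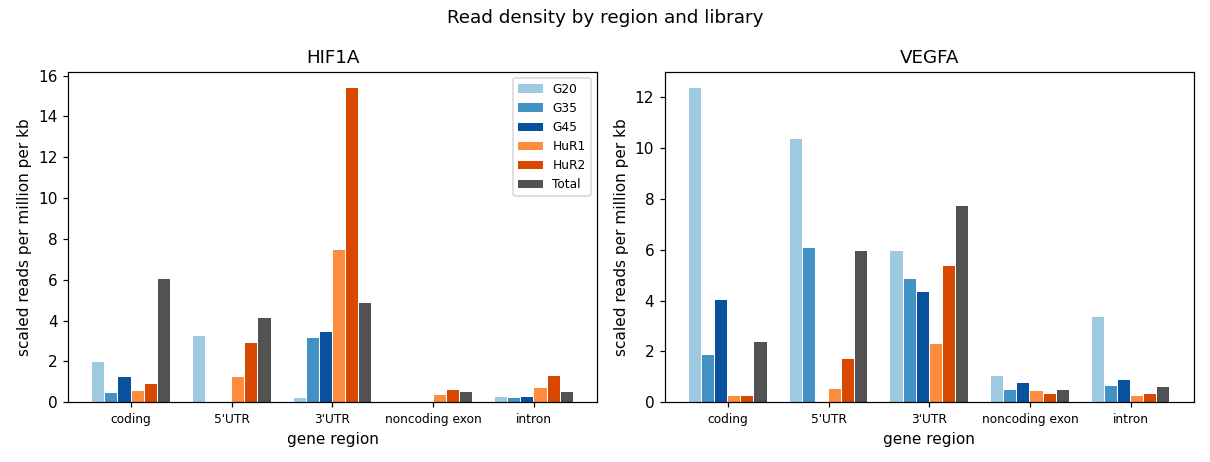
Read density, as CPM per kb of region (y axis, from 0), in each region of HIF1A and VEGFA (x axis), with 1 bar per library. In HIF1A the highest bars are the 3'UTR in HuR replicates 1 and 2, at 7.44 and 15.4, and in VEGFA the highest is the coding region in G20, at 12.4.

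Of the 9 member regions that passed the filter on low counts, 0 differed between HuR and the slices at an adjusted p under 0.05 by edgeR. At an unadjusted p under 0.05 there were 3, the HIF1A 3'UTR and introns and the VEGFA coding region, and DESeq2 called 2. Over all 45563 tested regions DESeq2 called 7372 in either direction, against 1958 by edgeR. The share of all regions at an unadjusted p under 0.05 was not counted, and the shares below are those of edgeR. The noncoding exons of HIF1A, with 0 reads in each slice, did not pass the filter. Over all tested regions, 1.28% were called higher and 3.02% lower in HuR. Among 3'UTRs 0.897% were called higher and 0.745% lower, among coding regions 0.146% and 8.5%, and among introns 2.75% and 1.12%. The noncoding exons of VEGFA held 46, 13 and 20 reads in the slices, 31 and 149 in the HuR replicates and 106 in Total, spread over 52 HuR intervals of which 7 held reads of both replicates. There the fold was -0.99 ± 0.99 (adjusted p = 0.53), and this changed sign to 1.01 with library totals.

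Against Total, which is a single library assumed to vary like the other groups, 0 of the 9 regions were called in HuR or in the slices by edgeR, and 0 by DESeq2. At an unadjusted p under 0.05 there were 2 for HuR, the coding regions, and 0 for the slices. The 3 comparisons share libraries, since each group enters 2 of them. Over all regions, 0.195% were called higher and 1.83% lower in HuR than in Total, and 0.237% higher and 0.0417% lower in the slices than in Total. HuR was lower than Total in the coding region of HIF1A by a fold of -3.02 ± 1.37 (log2, SE; adjusted p = 0.26) and in that of VEGFA by -3.26 ± 1.51 (adjusted p = 0.28), close to the median coding region at -3.39. In the 3'UTR the fold of HuR over Total was 1.24 ± 1.42 in HIF1A and -0.998 ± 1.09 in VEGFA, with adjusted p-values of 0.71 and 0.69, and the median 3'UTR was at -0.90. For the slices over Total, the folds were -1.15 ± 1.24 and -0.61 ± 1.03 in the 3'UTRs and -2.28 ± 1.23 and 1.37 ± 1.53 in the coding regions of HIF1A and VEGFA.

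A ratio within 1 gene and 1 library needs no scaling between libraries. The share of 3'UTR reads among 3'UTR plus coding reads was chosen for this after the reads had been seen. In HIF1A it was 4.55% in G20 (1 of 22 reads, 95% Wilson interval 0.807 to 21.8), 75.0% in G35 (9 of 12, 46.8 to 91.1) and 55.6% in G45 (10 of 18, 33.7 to 75.4). It was 85.9% in HuR replicate 1 (55 of 64, 75.4 to 92.4), 88.4% in replicate 2 (810 of 916, 86.2 to 90.3) and 26.8% in Total (122 of 456, 22.9 to 31.0). Both HuR values were above every slice, although the interval of G35 reached that of HuR. Intervals cover counting error only, since the reads carried no molecular identifiers.

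In VEGFA the share was 40.7% in G20 (46 of 113, 32.1 to 49.9), 78.6% in G35 (22 of 28, 60.5 to 89.8) and 60.6% in G45 (20 of 33, 43.7 to 75.3). It was 93.1% in HuR replicate 1 (27 of 29, 78.0 to 98.1), 97.0% in replicate 2 (447 of 461, 94.97 to 98.2) and 82.3% in Total (307 of 373, 78.1 to 85.8). The mean share of the HuR replicates was 87.2% ± 1.76 (SD, n = 2) against 45.0% ± 36.4 in the slices (SD, n = 3) for HIF1A, and 95.03% ± 2.73 against 60.0% ± 18.9 for VEGFA. The VEGFA difference depends on counting the stretch upstream of the AUG as coding. Downstream of the AUG lay 10, 0 and 0 coding reads in G20, G35 and G45, 1 and 1 in the HuR replicates and 24 in Total. Without the upstream stretch, G35 and G45 would hold 3'UTR reads only. A two-sided exact permutation test of 2 against 3 libraries gave p = 0.2 for each gene, which is the smallest p the 10 splits allow. With both HuR shares above every slice, this outcome was fixed. The share was also chosen after the reads had been seen, so the test adds no support. These shares are not particular to the 2 genes. Among genes with at least 20 such reads the median share was 89.3% and 89.0% in the HuR replicates, 25% to 50% in the slices and 44.0% in Total.

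**Figure D2:**
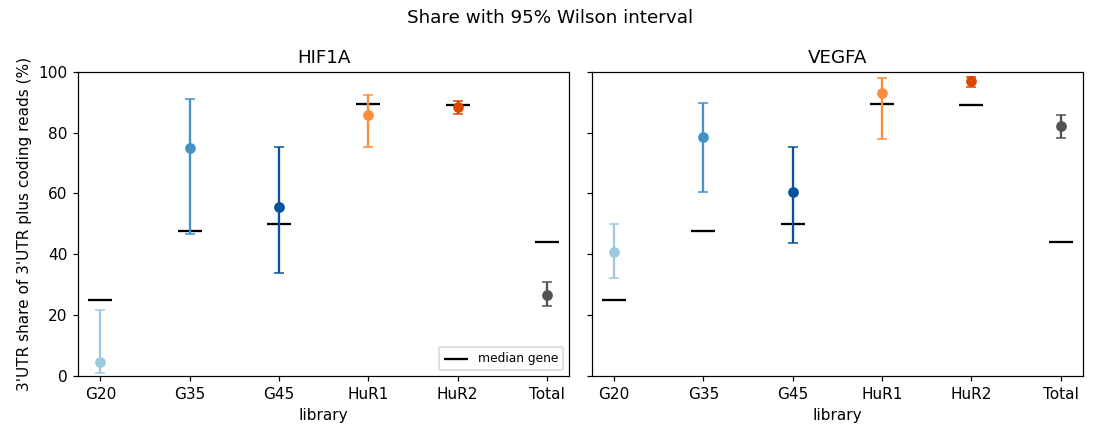
Share of 3'UTR reads among 3'UTR plus coding reads in percent (y axis) for each library (x axis), with 95% Wilson intervals as error bars, and the median gene with at least 20 such reads as a black dash. HuR replicates lie at 85.9% and 88.4% in HIF1A and at 93.1% and 97.0% in VEGFA, while VEGFA in Total, at 82.3%, lies far above the median gene of Total. Coding reads of VEGFA include those upstream of the AUG.

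Total itself separated the 2 genes. The 3'UTR share of Total lay above that of 31.4% of genes for HIF1A and of 88.0% of genes for VEGFA. In VEGFA, 157 of the 307 3'UTR reads of Total came from a single site at chr6:43752385-43752418, close to the stop codon, with 0 conversion events. G20 had 3 reads overlapping this site, and G35, G45 and both HuR replicates had 0. In HIF1A, 121 of the 334 coding reads of Total lay at chr14:62207774-62207792, where the 5 other libraries had 0 reads. As shares of all reads of the gene, the HIF1A 3'UTR held 1.25%, 24.3% and 21.7% in G20, G35 and G45 (95% Wilson intervals 0.221 to 6.75, 13.4 to 40.1 and 12.3 to 35.6). It held 20.1% and 21.7% in the HuR replicates (15.8 to 25.2 and 20.4 to 23.0) and 11.7% in Total (9.90 to 13.8). In VEGFA the 3'UTR held 21.8%, 41.5% and 35.1% in the slices (16.8 to 27.8, 29.3 to 54.9 and 24.0 to 48.1). The HuR replicates had 41.5% and 65.4% there (30.4 to 53.7 and 61.7 to 68.8) and Total had 52.9% (48.9 to 57.0). Over all protein-coding genes the 3'UTR share was 0.975%, 4.85% and 4.32% in the slices, 7.23% and 12.9% in the HuR replicates and 15.6% in Total.

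Along the HIF1A 3'UTR, HuR reads gathered near the end, and reads of Total did so in part as well. The bin from 951 to 1000 bases after the stop codon held 19.7% and 24.6% of the 3'UTR reads in HuR replicates 1 and 2. In Total it held 23.0%, and the bin from 451 to 500 held more, 30.3%. Of 22 merged HuR intervals, 14 held reads of both replicates and 13 held reads of Total. Interval 1, at chr14:62214754-62214810, had its centre 979 bases after the stop codon and held 13 and 242 HuR reads, with 3 reads in G45, 0 in the other slices and 28 in Total. Interval 2, at chr14:62214849-62214944, held 9 and 181 HuR reads, 0 reads in each slice and 5 in Total. Together these 2 intervals held 22 of 55 3'UTR reads in HuR replicate 1 and 423 of 810 in replicate 2, compared to 33 of 122 in Total. The intervals were built from HuR sites and ranked by HuR reads. This favours a higher share in HuR, so the difference from Total is a description and not a test.

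The other named HIF1A intervals lay nearer to the stop codon. Interval 3, at chr14:62213975-62214066, held 6 and 39 HuR reads and no read of a slice. Interval 4, at chr14:62213805-62213832, began at base 2 of the 3'UTR and held 4 and 21 HuR reads, but also 8 reads of G35, none of them with a conversion, and 0 of Total. Interval 5, at chr14:62213858-62213893, held 3 and 95 HuR reads, 7 reads of G45 and 11 of Total. All background reads of the HIF1A 3'UTR lay in HuR intervals found in both replicates, 1 read in G20, 9 in G35 and 10 in G45. These reads formed only 1, 2 and 2 sites. The longest of these intervals spanned 96, 92 and 86 of the 1174 bases of the 3'UTR. How much of it the intervals cover together was not counted, so the overlap is a description. The ninth read of G35 lay at chr14:62214814-62214848 and the read of G20 at chr14:62214945-62214967, 2 intervals singled out after their values were seen. Of the 14 intervals found in both replicates, 9 overlapped no background read on the same strand, a share that was not counted over all genes.

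In the VEGFA 3'UTR the reads of both HuR replicates gathered in the distal part. Of 21 intervals, 7 held reads of both replicates and 15 held reads of Total. Interval 1, at chr6:43753515-43753599, had its centre 1192 bases after the stop codon and held 7 and 209 HuR reads, 4, 3 and 9 reads in G20, G35 and G45, and 22 in Total. Interval 2, at chr6:43753609-43753675, held 6 and 53 HuR reads, 6 reads of G45 and 8 of Total. Together they held 13 of 27 3'UTR reads in HuR replicate 1, 262 of 447 in replicate 2 and 15 of 20 in G45, compared to 4 of 46 in G20, 3 of 22 in G35 and 30 of 307 in Total. In this share G45, on 20 reads, was nearer to HuR than to G20. As in HIF1A, the intervals were ranked by HuR reads, which favours a higher share in HuR, so the differences are not a test.

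Interval 3 of VEGFA, at chr6:43753694-43753718, held 5 and 18 HuR reads, 0 of each slice and 10 of Total. Interval 4, at chr6:43752823-43752875, held 3 and 10 HuR reads, 6 of G20 and 12 of Total, and interval 5, at chr6:43752499-43752548, held 2 and 20 HuR reads, 8 of G20 and 3 of Total. An interval of HuR replicate 2 near the end, at chr6:43754118-43754153, held 59 of its reads but 1 of replicate 1. It was singled out after its values were seen. Of the 7 intervals found in both replicates, 2 overlapped no background read on the same strand, a share that was not counted over all genes.

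**Figure D3:**
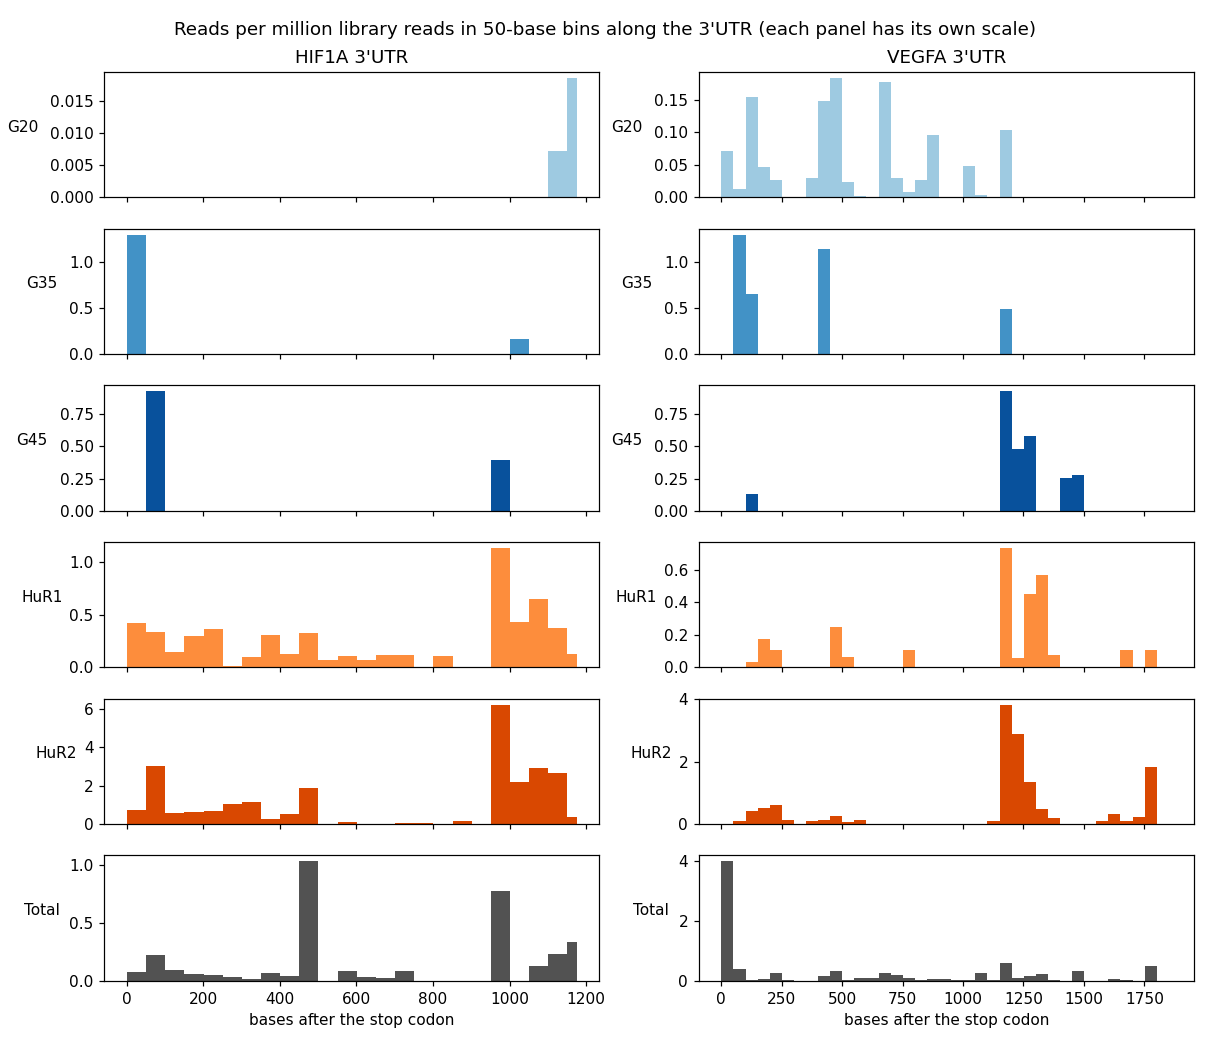
RPM (y axis, a separate scale in each panel, from 0) in 50-base bins along the 3'UTR (x axis, bases after the stop codon), with the reads of a site spread evenly over its length, for the 6 libraries in rows and HIF1A and VEGFA in columns. HuR replicate 2 had 24.6% of its HIF1A 3'UTR reads in the bin from 951 to 1000 and 27.5% of its VEGFA 3'UTR reads in the bin from 1151 to 1200, while Total was highest in VEGFA in the first bin.

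T-to-C conversions separated HuR from most of the background in both 3'UTRs. Since a read can carry up to 2 conversion events, their number per 100 reads can exceed 100. In the HIF1A 3'UTR G20 had 0 events on 1 read, G35 had 11.1 per 100 on 9 reads, and G45 had 30 per 100 on 10 reads. HuR replicates 1 and 2 had 100 and 113 events per 100 reads, and Total had 33.6. In the VEGFA 3'UTR the slices had 6.52, 118 and 40.0, the HuR replicates 100 and 105, and Total 12.4. G35, on 22 reads, was thus above both HuR replicates in VEGFA. Without its site of 157 reads, the VEGFA 3'UTR of Total had 25.3 events per 100 reads.

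The members' 3'UTRs are set here beside the 3'UTRs of all protein-coding genes, which had 29.1, 61.8 and 52.9 events per 100 reads in the slices, 82.1 and 102 in the HuR replicates and 19.7 in Total. HIF1A introns had 66.7, 64.0 and 46.4 in the slices, 97.1 and 103 in the HuR replicates and 22.3 in Total. The introns of all protein-coding genes had 8.84, 56.3 and 47.8 in the slices, 64.6 and 97.2 in the HuR replicates and 26.2 in Total. The top-ranked 3'UTR interval of each gene had more events per 100 reads in HuR than in the slices, but not every interval did. HIF1A interval 1 had 100 and 129 events per 100 reads in the HuR replicates, 0 on the 3 reads of G45 and 39.3 in Total. VEGFA interval 1 had 114 and 113 in the HuR replicates, 0 in G20 and G35, 44.4 in G45 and 40.9 in Total. The other way went the VEGFA 3'UTR interval at chr6:43752785-43752807, with 200 on 7 reads of G35 and 100 in HuR replicate 2. So did HIF1A intervals at chr14:62213633-62213687 (coding, 100 in G35, 91.1 in HuR replicate 2) and chr14:62167932-62167961 (intron, 200 in G45, 108 in HuR replicate 2). Intervals of each direction were not counted.

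**Figure D4:**
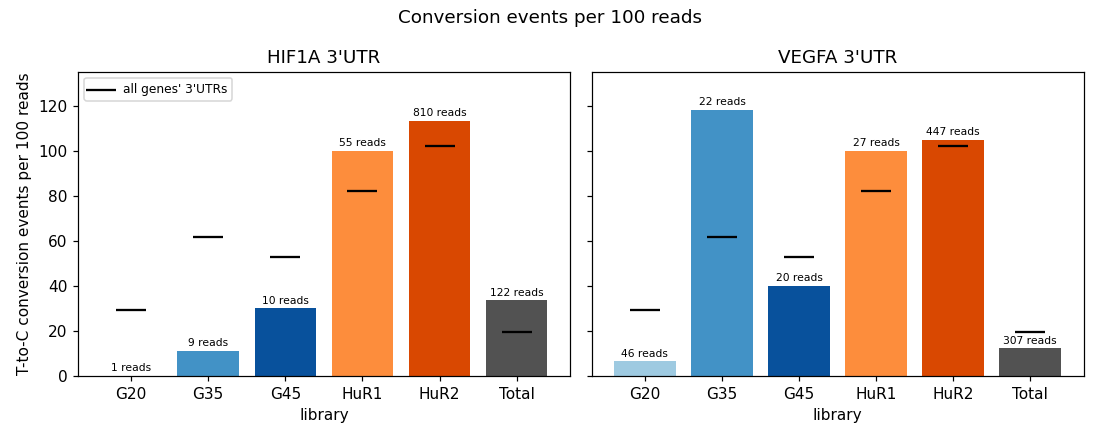
T-to-C conversion events per 100 reads (y axis, from 0) in the 3'UTR of HIF1A and VEGFA for each library (x axis), with the number of reads above each bar and the value over all genes' 3'UTRs as a black dash. In both genes the HuR bars stand at or above 100, and of the background bars only G35 in VEGFA, at 118 on 22 reads, reaches that height.

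HuR sites spread over the whole length of the HIF1A introns. HuR replicate 1 had 147 intron sites, of which 104 held a single read, and HuR replicate 2 had 289, of which 23 did. Of 357 merged intervals, 77 held reads of both replicates, and 66 of these overlapped no background read on the same strand. These shares were not counted over all introns. Intron 1 of the canonical transcript, with 50.3% of the intron bases, held 104 of 204 intron reads in HuR replicate 1 and 1424 of 2730 in replicate 2. Intron 4, with 10.004% of the bases, held 41 and 618. The last 50 bases before the 3' ends of the 14 introns, where pyrimidine-rich splice signals lie, held 1 of 147 sites and 3 of 289 sites in the HuR replicates and made up 1.15% of the intron bases. This window was chosen after the sites had been seen, and neither HuR replicate had more than its share of sites there.

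The 3 leading intron intervals of HIF1A are printed because each of them held a U-run, so the print is a choice by motif. The ranked windows of the HIF1A coding region and of the VEGFA 5'UTR and noncoding exons held neither TTTTT nor ATTTA. They are not printed, nor are those of the HIF1A 5'UTR, which held TTTTT. In the 47596 intron bases of HIF1A TTTTT occurs 473 times, overlaps included, and its share of intron windows was not computed. The intron windows were:
HIF1A intron interval 1: tcaagcttcaTTTTTTTctcatcagttatt
HIF1A intron interval 2: cacaatacttcTTTTTTTTg
HIF1A intron interval 3: aactcataccaTTTTTatatttctgtgtat
The windows lay at chr14:62187452-62187481, 62175614-62175633 and 62193125-62193154. Interval 1 held 7 and 61 HuR reads, 1 read of G20, 5 of G45 and 2 of Total. Interval 2 held 4 and 37 HuR reads, 0 of each slice and 4 of Total. Interval 3 held 3 and 59 HuR reads, 4 of G35 and 4 of Total. The sites of HIF1A introns held 39.4% and 40.0% T in the HuR replicates, 32.9%, 46.9% and 45.1% in G20, G35 and G45 and 36.2% in Total, compared to 33.5% over all HIF1A intron bases.

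The share of the members' HuR reads that shared a base with background differed between the genes. In the 3'UTR of HIF1A, 5 of 18 sites of HuR replicate 1 and 5 of 19 sites of replicate 2 overlapped a site of a slice on the same strand, and these held 24 of 55 and 391 of 810 reads. In VEGFA, 5 of 10 and 8 of 19 sites did, with 15 of 27 and 330 of 447 reads. Over all regions, 78 of 177 sites of HuR replicate 1 in HIF1A were found in the other replicate and free of background, as were 78 of 329 sites of replicate 2. For VEGFA these were 8 of 38 and 7 of 72 sites. The same shares over all genes were not counted, so these numbers describe the sites and are not a result about either gene. Without G20 the VEGFA numbers were 14 and 13, and with at least 2 reads required in every library the HIF1A numbers fell to 31 and 33. In the background, a slice held between 10 and 42 HIF1A sites and between 12 and 72 VEGFA sites, and G20 held the most of both.

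Genes around HIF1A in the oxygen response were read in the same test. Of 16 HIF subunits and regulators, 14 passed the count filter in the 3'UTR. By edgeR 0 were called between HuR and the slices, with 2 higher and 1 lower at an unadjusted p under 0.05, and DESeq2, which gave an adjusted p for 11 of them, called 2 higher and 1 lower. For these lists, shares over all regions of a kind are given by edgeR only. The counts by DESeq2 and at an unadjusted p have no such share beside them. Their median log2 fold was 1.16 against 0.67 over all 3'UTRs. The largest folds belonged to the ubiquitin ligases SIAH2 and SIAH1, which act on the prolyl hydroxylases, and to EGLN1, the main HIF prolyl hydroxylase. The EGLN1 3'UTR held 7, 5 and 11 reads in the slices, 80 and 1096 in the HuR replicates and 327 in Total, a fold of 2.79 ± 0.87 (adjusted p = 0.064). SIAH1 had 3.13 ± 1.22 (adjusted p = 0.12), and SIAH2 rested on 1 read in the slices. The smallest were EGLN2, at -4.06 ± 1.61 (adjusted p = 0.13), ARNT2, at -2.75 ± 1.96, and HIF1AN, at 0.46 ± 0.74.

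In their coding regions, 2 of 15 tested were called lower in HuR by edgeR, near its 8.5% of all coding regions. At an unadjusted p under 0.05 there were 6 lower, and DESeq2 called 6 of 10 lower. These counts were not made over all coding regions, so they are not a result about the list. The 2 called by edgeR were EGLN2 and the coactivator EP300, with folds of -4.47 ± 1.15 and -3.22 ± 0.88 and adjusted p-values of 0.033 and 0.041. The median was -3.22 against -2.63 over all coding regions. Among 5'UTRs, the coactivator CREBBP was called lower, with 384, 11 and 20 reads in the slices and 4 and 19 in the HuR replicates (-6.09 ± 1.29, adjusted p = 0.020). In introns, 1 of 15 was called higher against 2.75% of all introns, with 7 higher at an unadjusted p under 0.05 and 2 by DESeq2. This was EGLN1, at 2.86 ± 0.74 (adjusted p = 0.033), with 31, 12 and 11 reads in the slices and 233 and 2021 in the HuR replicates. The median intron fold was 1.52 against 0.75 over all introns.

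Of 9 other VEGF family members and receptors, 5 passed the filter in the 3'UTR, and 0 of them were called by edgeR, with 2 lower at an unadjusted p under 0.05 and 2 lower by DESeq2. The median fold was 0.45. VEGFB, a relative of VEGFA, had 33 3'UTR reads in G20 and 0 in the other slices and in both HuR replicates. FLT4, the receptor of lymphatic vessels, had a 3'UTR fold of -4.14 ± 1.85 (adjusted p = 0.17), and its introns were called lower in HuR, at -3.53 ± 0.90 (adjusted p = 0.032). The co-receptor NRP1 had 0.45 ± 1.10, and FLT1 and NRP2 each had 4 reads in G20 and 0 in the other slices, against 7 and 51 HuR reads in FLT1 and 9 and 62 in NRP2. In coding regions 0 of 5 were called by edgeR, with 2 lower at an unadjusted p under 0.05 and 1 lower by DESeq2, and the median was -2.74. In introns 1 of 8 was called lower, FLT4, against 1.12% of all introns, and the median was 0.17.

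Of 23 hypoxia target genes, 19 passed the filter in the 3'UTR and 2 were called lower in HuR, against 0.745% of all 3'UTRs, with 1 higher and 4 lower at an unadjusted p under 0.05 and 2 lower by DESeq2. The 2 called by edgeR were the glycolytic enzymes ALDOA, at -5.33 ± 1.34 (adjusted p = 0.031), and ENO1, at -3.96 ± 1.06 (adjusted p = 0.039). LDHA, which makes lactate, had 25 reads in G20, 0 in G35 and G45, 0 and 15 in the HuR replicates and 668 in Total. The highest folds belonged to the collagen prolyl hydroxylase P4HA1, at 2.74 ± 1.44, the histone demethylase KDM3A, at 2.27 ± 1.62, and the pyruvate dehydrogenase kinase PDK1, at 2.21 ± 1.07, with adjusted p-values of 0.23, 0.38 and 0.20. The median fold was -0.56, below that of all 3'UTRs. In coding regions ALDOA and ENO1 were again the 2 of 19 called by edgeR, near its 8.5% of all coding regions. At an unadjusted p under 0.05 there were 9 lower, and DESeq2 called 8 of 15 lower. These 2 counts were not made over all coding regions, so they are not a result about the list. The folds of ALDOA and ENO1 were -5.84 ± 1.12 and -5.11 ± 1.00, and the median of the list was -3.66 against -2.63 over all coding regions. Their 5'UTRs were called lower as well, with adjusted p-values of 0.044 and 0.045, while over all 5'UTRs 0.498% were called higher and 2.41% lower. In introns 0 of 17 were called by edgeR and 0 by DESeq2, with 2 higher at an unadjusted p under 0.05, and the median was 0.79.

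The 3'UTR pattern of each member over the 6 libraries was compared with those of 10476 tested 3'UTRs, by the Euclidean distance of log2 CPM with 0.5 added. For HIF1A the nearest were TMEM38B at 0.69, RAB33B at 0.72 and MTF2 at 1.00, against a median distance of 5.88. For VEGFA they were GLG1 at 0.60, CDC25A at 0.78 and ARIH2 at 0.79, against a median of 6.49. The 2 members were 4.60 apart. TMEM38B had 6.51 and 14.05 CPM in the HuR replicates and 0.482 to 4.43 in the slices, while GLG1 had 5.08 and 9.43 in the HuR replicates and 7.35 to 8.46 in the slices.

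**Figure D5:**
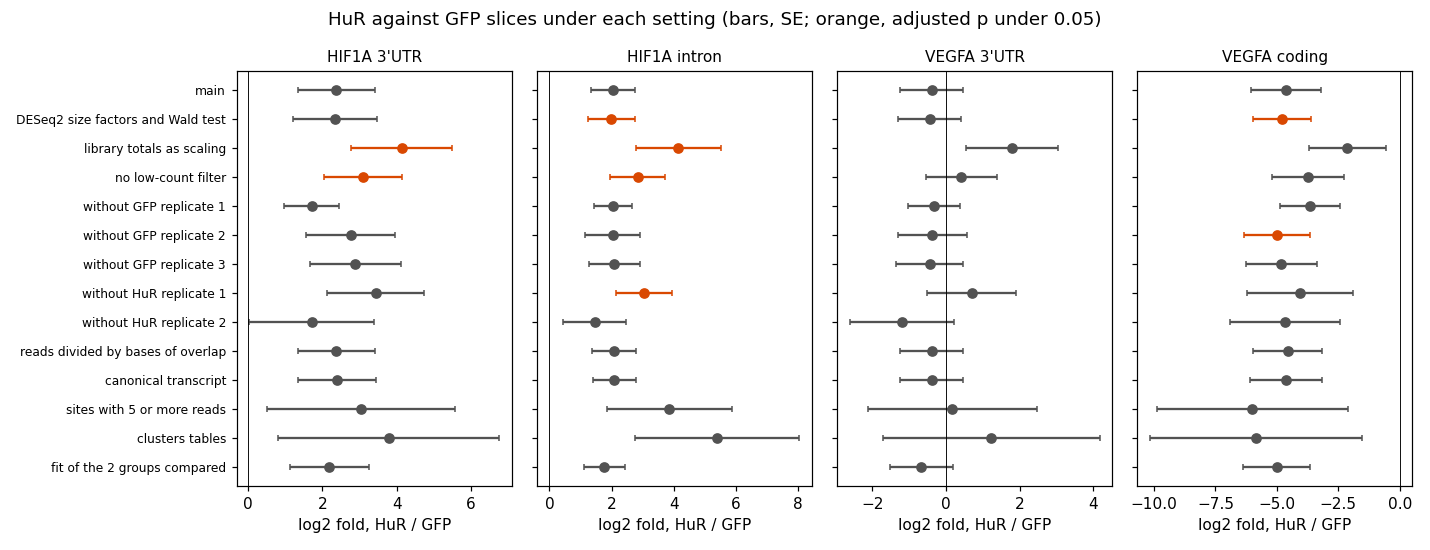
Log2 fold of HuR over the GFP slices (x axis) under each processing setting (y axis) for 4 member regions, with SE as bars and orange points where the adjusted p is under 0.05. The HIF1A 3'UTR and introns lie above 0 and the VEGFA coding region below 0 in every setting shown, while the VEGFA 3'UTR runs from -1.19 to 1.79.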

How the data were processed

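Single reads were mapped by the authors to hg19 with bowtie, and reads that mapped once, with at most 2 mismatches, each a T-to-C change, were gathered into sites by PARalyzer. Per the file headers and methods, the deposited values are raw counts per site of reads, conversion locations and conversion events, without normalization. Whether PCR duplicates were removed is not given in the sources used here. The groups tables, which hold sites with any read, were used throughout, and the clusters tables as an alternative. Sites were placed by their midpoint in regions of protein-coding genes of GENCODE release 44 mapped to GRCh37, on the same strand. A site in overlapping genes counted in each of them, and sites on the opposite strand were not counted.

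Counts per gene region were tested in R 4.3.3 with edgeR 4.0.16 (TMM, filterByExpr, quasi-likelihood test, Benjamini-Hochberg adjustment over all regions, threshold 0.05) on 6 libraries in 3 groups. The common dispersion was 0.711. The fit was tried only on simulated data with changes larger than any fold of HIF1A or VEGFA given here. This does not show whether it finds changes of their size. DESeq2 1.42.0, library totals as scaling, no low-count filter, a left-out library, division by bases, canonical transcripts, sites with 5 or more reads, clusters, pairwise fits and whole genes were alternatives. Intervals are 95% Wilson intervals. With 3 reads as the floor, a region with 0 reads allows up to 3 reads. Depth ranged from 6187300 to 38644636 reads. Python 3.11.15, pandas 2.3.3, scipy 1.17.1 and matplotlib 3.10.9 were used otherwise.

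The members, lists and rules were chosen with earlier results of these data known. Named were both members in every region, 3 genes of each list with the highest and 3 with the lowest 3'UTR fold, list genes called in a tested region, the 3 nearest 3'UTR patterns, and up to 5 HuR intervals per 3'UTR and 3 per other region, of which those that carry a result are printed.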

Additional observations from a re-analysis of the deposited data

Results flagged for a closer look

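Both genes faced a single strong site on the opposite strand, which the comparisons of the genes leave out. Opposite the HIF1A 3'UTR, at chr14:62213855-62213881 on the minus strand within the span of the lncRNA gene HIF1A-AS3, the slices held 916, 2595 and 3627 reads in G20, G35 and G45, or 23.7, 419 and 481 RPM, against 4.29 in Total. HuR replicates 1 and 2 held 8 and 2398 reads there. Conversion events were rare, at 1.09 to 1.39 per 100 reads in the slices and 0 on 154 reads in Total. The site lies opposite HIF1A interval 5, and all other minus-strand sites of the HIF1A span together held 2, 1 and 6 reads in the slices. When strand was ignored, a choice made after seeing the data, 6 instead of 5 of the 19 3'UTR sites of HuR replicate 2 overlapped background, and the numbers of shared and background-free sites stayed at 78 and 78.

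Opposite VEGFA, at chr6:43745236-43745253 on the minus strand, the slices held 146, 738 and 621 reads, or 3.78, 119 and 82.4 RPM, against 0.891 in Total. HuR replicates held 21 and 417 reads, and each slice had 1 conversion event. At each of these sites the value that stood out was signal in reads outside the comparisons and above Total in all 3 slices. Whether these reads come from the loci they map to was not tested.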

How the results depend on the processing

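Of 483 recomputed values, 408 kept their direction and their side of the threshold or moved by less than the spread between replicates, 31 changed sign, 8 newly passed the threshold, 36 moved further and 0 lost a call, since the report calls no region of HIF1A or VEGFA. The number of their regions called between HuR and the slices, 0 as reported, was 2 with DESeq2, 2 with library totals as the scaling and 2 without the low-count filter, and it ran from 0 to 1 when 1 library was left out. The HIF1A 3'UTR passed with library totals (4.13) and without the filter (3.09), and ran from 1.71 to 3.44 when 1 library was left out. The HIF1A introns passed with DESeq2, with library totals (4.15), without the filter (2.84) and without HuR replicate 1. The VEGFA coding region passed with DESeq2 (-4.78) and without G35.

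The VEGFA 3'UTR changed sign with library totals (1.79), without the filter (0.42), without HuR replicate 1 (0.70), with sites of 5 or more reads (0.17) and with the clusters tables (1.23), and ran from -1.19 to 0.70 when 1 library was left out. For HuR against the slices, library totals also turned the VEGFA 5'UTR (0.28), noncoding exons (1.01) and introns (0.09) and the HIF1A coding region (1.63). The HIF1A coding region turned also without the filter (0.10), without HuR replicate 1 (0.17), with 5 or more reads (1.21) and with clusters (0.68), and the HIF1A 5'UTR without HuR replicate 2 (-0.04) and with canonical transcripts (-2.11). For HuR against Total, the VEGFA noncoding exons turned with library totals (0.42) and without either HuR replicate (0.25), the HIF1A 5'UTR with library totals (0.01), without HuR replicate 1 (0.32) and with clusters (6.17), and the VEGFA 3'UTR without HuR replicate 1 (0.30) and with clusters (0.53). For the slices against Total, the VEGFA 5'UTR turned with DESeq2 (0.09), without G45 (0.46), without HuR replicate 1 (0.13), without HuR replicate 2 (0.25) and in a fit of these groups alone (0.21). There library totals turned the VEGFA coding region (-0.30), noncoding exons (-0.59) and introns (-0.23). With 1 library left out, these folds ran from -1.23 to 0.17 (HIF1A coding) and from -0.04 to 7.10 (HIF1A 5'UTR) for HuR against the slices, from -1.47 to 0.30 (VEGFA 3'UTR), -0.29 to 0.25 (VEGFA noncoding exons) and -1.47 to 0.32 (HIF1A 5'UTR) for HuR against Total, and from -0.91 to 0.46 (VEGFA 5'UTR) for the slices against Total. The cause of these changes was not tested.

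With sites of 5 or more reads, the mean 3'UTR share of HIF1A reads was 51.7% in HuR, 31.1% in the slices and 15.8% in Total, and that of VEGFA was 71.5% in HuR and 63.3% in Total. Conversion events per 100 reads in the 3'UTR were 107 for VEGFA in HuR with 5 or more reads and 107 with clusters, and clusters gave 42.9 for HIF1A in the slices and 43.2 for VEGFA in Total. Shared and background-free sites fell to 31 and 33 in HIF1A and to 4 and 3 in VEGFA when 2 reads were required, and rose to 14 and 13 in VEGFA without G20. Over all gene regions, 1958 were called between HuR and the slices, against 0 without G20, 7372 with DESeq2, 8384 with library totals, 4931 without the filter, 715 without G45, 690 without HuR replicate 2, 90 with 5 or more reads, 7 with clusters and 1008 in a fit of these groups alone.

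No paired analysis was possible because the labels number only the HuR replicates, and the slices and Total share no number with them. The slices held 1 to 46 reads in each 3'UTR, which limits every value given for them.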
